A study of Danio rerio with 3 samples.

Results

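Genes for making, breaking down, binding and sensing retinoic acid were described in embryos of the zebrafish, Danio rerio, that had received MO-grnA, a morpholino directed at granulin A, against wild-type embryos. The members are 10 genes named by symbol, aldh1a2, cyp26a1, cyp26b1, cyp26c1, raraa, rarab, rarga, rxraa, dhrs3a and crabp2a, and a probe belonged to a member if its accession led to that symbol in a RefSeq gene table. Probes matched 9 of the 10 members among 11668 symbols with a probe on the array, and rarab was not analysed here. Of these 9 genes, 6 had 2 probes and 3 had 1, which gave 15 probes, all of them tested.

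Embryos of both groups were 22 hours old (22 hpf), and morpholino was injected at the 1-cell stage in a volume of 2 to 3 nl, while the wild-type embryos were untreated. No control morpholino or mock injection was analysed here, so what injection alone does is contained in each ratio. Each of 3 arrays with 2 colours held RNA of 200 morphant embryos and RNA of 200 wild-type embryos, and the arrays are biological replicates per the labels. Morphant RNA carried Cy5 on replicates 1 and 2 and Cy3 on replicate 3, the dye swap. RNA of the targeted gene itself was higher, with a grna log2 ratio of 0.31 (SE 0.08, n = 3, adjusted p = 0.0227 in limma). It was 0.19, 0.34 and 0.39 on replicates 1, 2 and 3, and its values under other settings are not given here. A morpholino that blocks translation need not lower its transcript, and whether MO-grnA is of that kind the sources used here do not say, so this probe does not check the labels.

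Retinoic acid is made from vitamin A. Retinol is oxidised to retinaldehyde, which retinaldehyde dehydrogenases such as Aldh1a2 turn into retinoic acid, while Dhrs3 reduces retinaldehyde back to retinol and Cyp26 enzymes oxidise retinoic acid to inactive products. In the nucleus it binds retinoic acid receptors (RAR), which pair with retinoid X receptors (RXR) on DNA. In the zebrafish embryo, somites and lateral mesoderm are known as sources, and the tail bud and hindbrain as sites of Cyp26 expression.

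Most of these genes were lower in morphants, by small amounts. With each gene taken by its brightest probe, 5 of 9 fell (cyp26a1, raraa, dhrs3a, cyp26c1 and aldh1a2) and 2 rose (rxraa and cyp26b1). The binding protein gene crabp2a and the receptor gene rarga did not pass. Here "rose" and "fell" are used of values past an adjusted p of 0.05 in limma's two-sided test of the log2 ratio against 0, adjusted by the Benjamini-Hochberg method across the 25066 tested probes. Over all 9227 tested named genes 41.3% were called, 22.0% lower and 19.3% higher, so the background is high, and 77.8% of the 9 members were called. The median log2 ratio of the members was -0.33, against -0.00077 over all named genes, and the median size was 0.37 against 0.22. The members' probes differed widely in brightness, with mean log2 intensities from 6.69 (rxraa, second probe) to 14.3 (cyp26a1, brighter probe). The median of these intensities was 12.6, a level that 4601 of the 25066 tested probes reached. These comparisons were not matched for brightness. No member reached a 2-fold change in this fit, which 4.17% of all named genes did with a call, while rxraa passed 2-fold with Agilent's own log ratio. The members, like the lists below, were chosen with earlier results of these data known, so these comparisons only describe them. No test was made of the list as a whole. These are whole embryos, in which fewer cells of a type and less RNA per cell cannot be told apart.

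All 7 calls ended when the arrays were centred on their medians in place of an intensity-dependent loess fit, although the sign of each of the 9 genes was kept. With median centring 0 of the 9 genes passed in limma, and 2 had an unadjusted p under 0.05. Of all 25066 tested probes, 715 passed with median centring, against 9435 with loess, so most calls outside the members ended as well. The median of the median-centred ratios changed sign on the dye-swap array, and lay further from 0 for bright probes. As only replicate 3 was swapped, the dye and that array cannot be told apart. Among 4601 tested probes with a mean log2 intensity of at least 12.6, the median of the members' probes, the median log2 ratio was 0.63 on replicate 1 and 0.43 on replicate 2, both with morphant RNA in Cy5. It was -0.57 on replicate 3, the dye swap. Over all tested probes the medians on replicates 1, 2 and 3 were 0.38, 0.20 and -0.25, and among the dimmer ones 0.31, 0.15 and -0.17. The SD over arrays had a median of 0.53 over the member probes with median centring and 0.17 with loess. Over all tested probes that median was 0.40 with median centring and 0.14 with loess. When a dye term was added to the median-centred ratios, an alternative chosen after seeing the data, 4 of the 9 genes passed (cyp26a1 and cyp26c1 lower, cyp26b1 and rxraa higher). At that setting 6951 of the 25066 tested probes passed. A dye term fits replicate 3 exactly, so a probe's own spread then comes from replicates 1 and 2 alone.

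**Figure D1:**
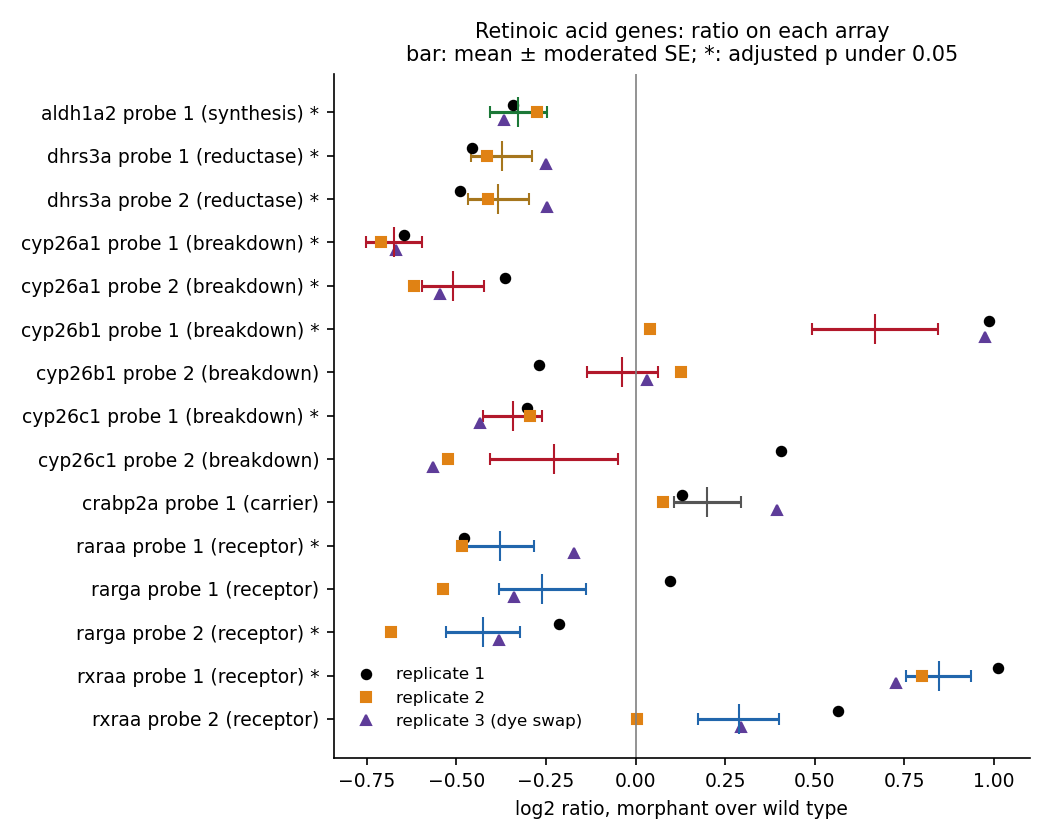
Log2 ratio of morphant over wild type (x axis) on each of 3 arrays for the 15 probes of 9 retinoic acid genes; points are arrays, vertical ticks are means and bars are moderated SE. Replicates lie close together for aldh1a2, dhrs3a and cyp26a1 probe 1 and far apart for cyp26b1 probe 1, where replicate 2 is at 0.04, and for cyp26c1 probe 2, where replicate 1 is at 0.41.

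The gene for the main enzyme of retinoic acid synthesis in the early embryo fell slightly. The single aldh1a2 probe (NM_131850) had normalised intensities of 18030, 17984 and 18351 in the wild-type channels of replicates 1, 2 and 3, and of 14233, 14851 and 14238 in the morphant channels. Every morphant value lay below every wild-type value, as in 7 of the 15 member probes, while in 3 others every morphant value lay above. Those 3 were the brighter cyp26b1 probe and both rxraa probes. On the dimmer rxraa probe the margin was slight, as both channels of replicate 2 rounded to 108. Over all tested probes, the groups did not overlap, in one direction or the other, for 37.6%. The aldh1a2 log2 ratio was -0.34, -0.28 and -0.37 on the 3 arrays, a mean of -0.33 (SE 0.08, n = 3, 1.26-fold lower, adjusted p = 0.0142). The call was near the threshold. With replicate 2 left out the log2 ratio was -0.35 (adjusted p = 0.0519) and with replicate 3 left out -0.31 (adjusted p = 0.0704), neither of which passed.

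dhrs3a, whose product lowers the supply of retinaldehyde, fell by a similar amount on both of its probes (NM_001003477). The brighter probe had wild-type intensities of 1806, 1985 and 1817 and morphant intensities of 1317, 1489 and 1527. The groups did not overlap on this probe or on the other. Its log2 ratio was -0.37 (SE 0.08, adjusted p = 0.0105), and the second probe gave -0.38 (SE 0.09, adjusted p = 0.0104). Probe by probe the pair differed by at most 0.03 on an array, the closest match among the 6 members with 2 probes. Without replicate 2 both calls ended (adjusted p = 0.0579 and 0.0516).

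Of the breakdown enzymes, cyp26a1, the family member that retinoic acid itself is known to induce, had the largest fall among the members. Its brighter probe (NM_131146) read 32116, 23774 and 23631 in wild type and 20517, 14539 and 14877 in morphants. Replicate 1 was brighter than the others in both channels, and still each morphant value lay below all wild-type values. The log2 ratios were -0.65, -0.71 and -0.67, with a mean of -0.67 (SE 0.08, 1.60-fold lower, adjusted p = 5.0e-04). The second probe gave -0.36, -0.62 and -0.55, a mean of -0.51 (SE 0.09, adjusted p = 0.00305). Both calls held with any replicate left out, with a dye term, with Agilent's own log ratio and with median centring plus a dye term, and ended with median centring alone (adjusted p = 0.522 and 0.656). Over these settings the log2 ratio of the brighter probe ranged from -0.69 to -0.47.

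cyp26b1, expressed in the hindbrain of zebrafish embryos, was the breakdown gene that rose, but on 1 of its 2 probes (NM_212666). The brighter probe read 7044, 10458 and 8210 in wild type and 13947, 10757 and 16153 in morphants. The groups stood apart, narrowly on replicate 2. Replicates 1 and 3 were high in morphants, with log2 ratios of 0.99 and 0.98, while replicate 2 gave 0.04. The mean of 0.67 (SE 0.18, SD 0.54, 1.59-fold higher, adjusted p = 0.020) rests on those arrays, and was lost when replicate 3 was left out (0.51, adjusted p = 0.162). It was lost as well with Agilent's own log ratio (adjusted p = 0.0585). The second probe gave -0.27, 0.13 and 0.03, a mean of -0.04 (SE 0.10, adjusted p = 0.798), and its groups overlapped. Between the probes the log2 ratio differed by 0.70, a difference that 8.44% of the 2677 genes with more than 1 tested probe equalled or exceeded. The rise is therefore a value of 1 probe, and the direction for the gene is not settled by these arrays.

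For cyp26c1, another hindbrain enzyme gene, the brighter probe (NM_001029951) read 26838, 18917 and 19979 in wild type and 21769, 15421 and 14800 in morphants. The groups overlapped, since replicate 1 was bright in both channels, but the ratio was below 0 on each array (-0.30, -0.29 and -0.43). Its mean was -0.34 (SE 0.08, 1.27-fold lower, adjusted p = 0.0130). Leaving out replicate 3 (adjusted p = 0.0739) or using Agilent's own log ratio (adjusted p = 0.0609) brought it to the other side of the threshold. The dimmer probe read 453, 536 and 528 in wild type and 600, 373 and 357 in morphants. Replicate 1, the only array of slide 1, went up on that probe (0.41) and replicates 2 and 3, on slide 2, went down (-0.52 and -0.56). Its mean of -0.23 (SE 0.18, adjusted p = 0.346) did not pass, while without replicate 1 it was -0.54 (adjusted p = 3.3e-04).

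**Figure D2:**
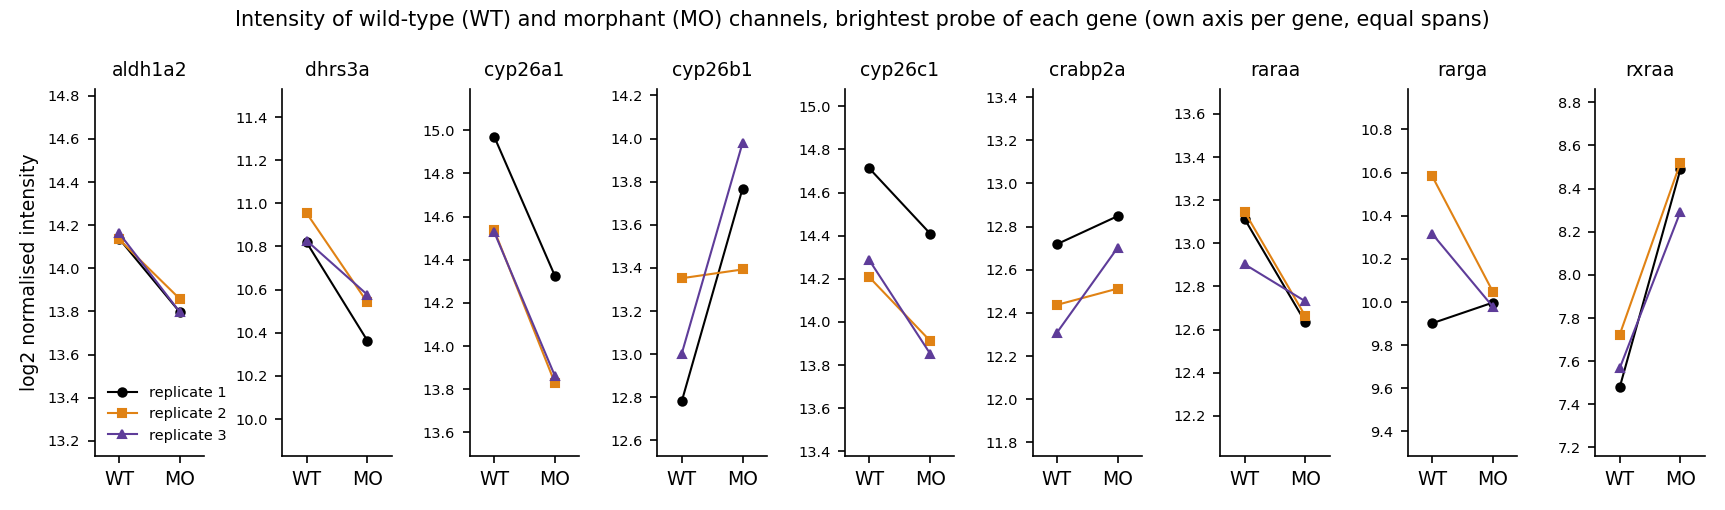
Log2 normalised intensity (y axis, own range per gene, equal spans) of the brightest probe of each of 9 genes in the wild-type (WT) and morphant (MO) channel; each line joins the channels of 1 array. All 3 lines fall for aldh1a2, dhrs3a, cyp26a1, cyp26c1 and raraa, and all 3 rise for rxraa, cyp26b1 and crabp2a, with cyp26b1 nearly level on replicate 2.

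crabp2a encodes a cellular protein that binds retinoic acid. Its single probe (NM_182859) read 6740, 5546 and 5072 in wild type and 7377, 5844 and 6666 in morphants, with overlapping groups. The ratio was above 0 on each array (0.13, 0.08 and 0.39), at a mean of 0.20 (SE 0.09, adjusted p = 0.126), which did not pass. It passed at none of the other settings either.

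Among the receptor genes, calls went in both directions. raraa, a retinoic acid receptor alpha gene, fell. Its probe (NM_131406) read 8864, 9071 and 7661 in wild type and 6360, 6486 and 6800 in morphants, without overlap. The log2 ratios were -0.48, -0.48 and -0.17, a mean of -0.38 (SE 0.09, 1.30-fold lower, adjusted p = 0.0156). It did not pass when replicate 2 was left out (-0.33, adjusted p = 0.0863).

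rarga, a retinoic acid receptor gamma gene known for expression in the zebrafish tail bud, was below 0 on both probes (NM_131339), of which the dimmer passed. The brighter probe read 956, 1536 and 1275 in wild type and 1022, 1059 and 1009 in morphants. The wild-type value of replicate 1 was low, and the ratio there was 0.10, against -0.54 and -0.34 on replicates 2 and 3. Its mean was -0.26 (SE 0.12, adjusted p = 0.131), and without replicate 1 it was -0.44 (adjusted p = 0.00295). The dimmer probe gave -0.21, -0.68 and -0.38, a mean of -0.43 (SE 0.10, adjusted p = 0.0147), with no overlap between groups. It did not pass in fits that left out replicate 2 (-0.30, adjusted p = 0.100) or replicate 3 (adjusted p = 0.0751), or that held a dye term (adjusted p = 0.0601).

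rxraa, a retinoid X receptor alpha gene, had the largest change of the 9 genes, and rose. Its brighter probe (NM_001161551) read 178, 211 and 190 in wild type and 360, 367 and 314 in morphants, so that the lowest morphant value stood well above the highest wild-type value. The log2 ratios were 1.01, 0.80 and 0.73, a mean of 0.85 (SE 0.09, 1.80-fold higher, adjusted p = 3.1e-04). The second probe, dimmer still, gave 0.57, 0.01 and 0.29, a mean of 0.29 (SE 0.11, adjusted p = 0.0795) that did not pass. The second probe was well above background on 2 of 3 arrays in wild type and on all 3 in morphants. It was therefore tested only through the group where it is higher, and its values are not separate support for the rise. An offset, here 50, pulls dim ratios toward 0. With an offset of 16 these probes gave 0.99 (adjusted p = 2.05e-04) and 0.43 (adjusted p = 0.0505). With no background correction they gave 0.90 (adjusted p = 4.6e-04) and 0.35 (adjusted p = 0.055). Agilent's own log ratio gave 1.17 (adjusted p = 0.00102) and 0.86 (adjusted p = 0.00462). Agilent's ratio comes from its own processed signals and differs in more than the offset, whose part in the dimmer probe's value was not tested. The call of the brighter probe held with any replicate left out and ended with median centring (0.96, adjusted p = 0.0779).

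The members' ratios therefore ran from -0.67 (cyp26a1) through -0.38 (raraa), -0.37 (dhrs3a), -0.34 (cyp26c1), -0.33 (aldh1a2), -0.26 (rarga) and 0.20 (crabp2a) to 0.67 (cyp26b1) and 0.85 (rxraa). From raraa to rarga the neighbours lay within a moderated SE of each other. On the brighter probes, cyp26a1 was lower on each array than aldh1a2 was on any, while its second probe overlapped aldh1a2. The sign agreed over the 3 arrays for 12 of the 15 probes, against 65.0% of all tested probes. Of the 6 members with 2 probes, 5 had the same sign on both, against 72.6% of such genes. Both counts include the dimmer rxraa probe, tested only through the morphant group. Of the 15 probes, 10 were called, 8 lower and 2 higher, where 37.6% of all tested probes were called, 19.6% lower and 18.0% higher. That count was 6 without replicate 2, 6 without replicate 3 and 12 without replicate 1. Of the 9 genes, 4 passed without replicate 2, 4 without replicate 3 and 8 without replicate 1.

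**Figure D3:**
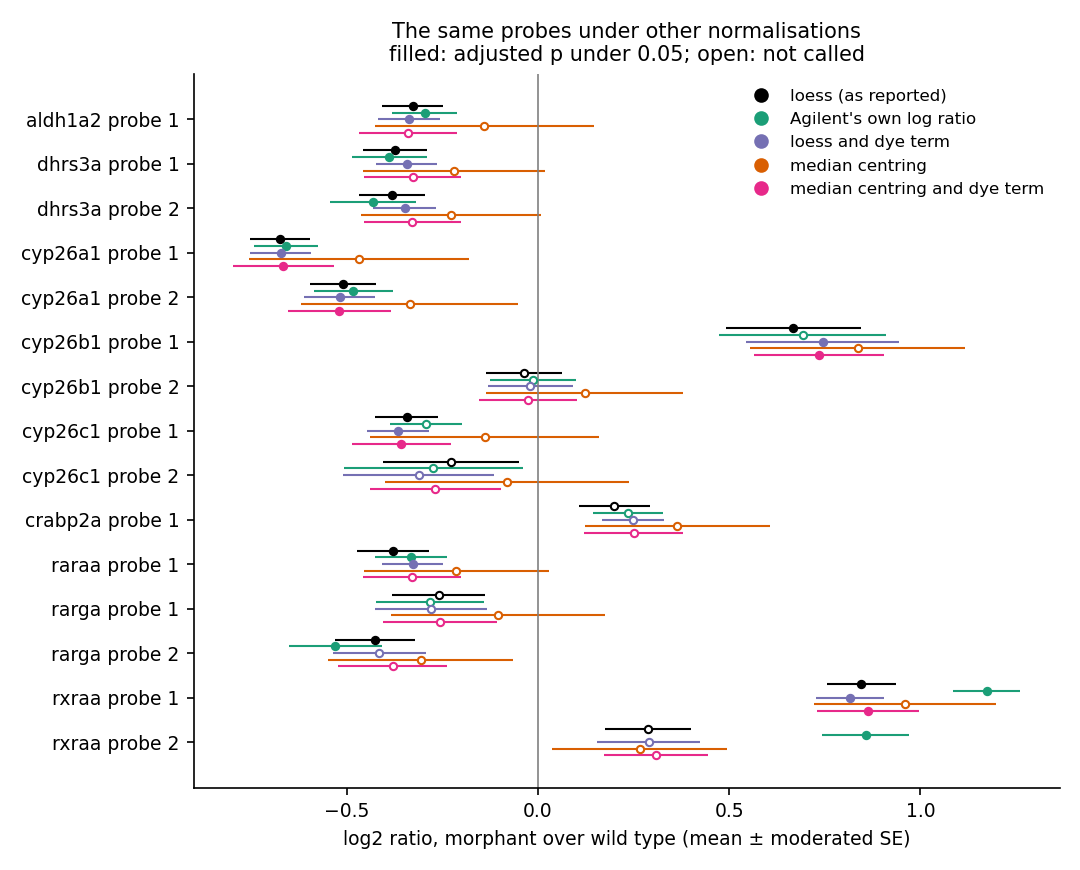
Log2 ratio (x axis, mean and moderated SE) of the 15 probes under loess, Agilent's own log ratio, loess with a dye term, median centring, and median centring with a dye term; filled points passed an adjusted p of 0.05. No point is filled under median centring, whose bars are the widest of the 5 settings for each probe, and median centring with a dye term lies within 0.06 of loess for each probe but cyp26b1 probe 1.

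Among other genes of the retinoid pathway there were more calls lower than higher. The list held 59 genes of retinol transport, storage and oxidation, carotenoid cleavage, retinoid binding, receptors and coregulators, of which 38 had a probe and 32 were tested. Of these, 15 fell, 5 rose and 12 did not pass, with a median log2 ratio of -0.22. Over all named genes 22.0% were called lower and 19.3% higher, and no test was made of the list. The falls were led by rdh1 (-2.12, SE 0.08, 4.34-fold lower, adjusted p = 4.2e-06), a retinol dehydrogenase gene by name, whose second probe gave -2.01. The rdh1 ratio was -2.02, -2.20 and -2.13 on the 3 arrays. With median centring only rdh1 and dhrs4 of this list passed. Falls followed in dhrs9 (-1.20, SE 0.10), a short-chain dehydrogenase gene, and in bco2l (-1.10, SE 0.08), of the carotenoid cleavage family. Their adjusted p-values were 7.4e-05 and 4.6e-05, and a second bco2l probe gave -0.76. With median centring dhrs9 (adjusted p = 0.11) and bco2l (adjusted p = 0.105) did not pass.

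Rises were led by dhrs4 (1.14, SE 0.10, 2.20-fold higher, adjusted p = 1.2e-04), a retinol and retinaldehyde dehydrogenase/reductase gene. Next came stra6 (0.39, SE 0.08, adjusted p = 0.00796), the cell-surface receptor for the retinol carrier, with a second probe at 0.19. The plasma retinol carrier gene rbp4 itself rose by 0.30 (SE 0.08, adjusted p = 0.0242) and rpe65b, of the retinoid isomerase family, by 0.28 (SE 0.08, adjusted p = 0.0255). A second rpe65b probe gave 0.12 and did not pass (adjusted p = 0.277). Neither rbp4 nor rpe65b passed once any 1 replicate was left out (adjusted p from 0.0514 to 0.0933) or a dye term was added, and stra6 did not pass without replicate 3 (adjusted p = 0.0558).

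Along the route to retinoic acid, rdh10b, whose product oxidises retinol to retinaldehyde, fell by 0.45 (SE 0.08, adjusted p = 0.00456). dhrs3b, the paralog of dhrs3a, fell by 0.37 (SE 0.08, adjusted p = 0.0117). Of the other aldh genes on the list, aldh1a3 had a log2 ratio of -0.13 (adjusted p = 0.302) and aldh8a1 of 0.14 (adjusted p = 0.257). Among the other RXR genes, rxrba fell by 0.60 (SE 0.08, adjusted p = 0.00106, second probe -0.50), while rxrbb (0.14, adjusted p = 0.230) and rxrgb (-0.18, adjusted p = 0.111) did not pass. The probes of rargb and rxrab were not above background on all arrays of a group. Among binding proteins, crabp1a fell by 0.41 (SE 0.10, adjusted p = 0.0125) and crabp1b was at -0.10 (adjusted p = 0.560). Genes of this paragraph lie outside the rule for named genes and were chosen after their values were seen, as the direct relatives of the members.

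Genes known to be raised by retinoic acid in vertebrate embryos were mixed. Of 31 such genes beside the members, 28 were tested, 9 fell, 3 rose and 16 did not pass, a share of calls near the 41.3% of all named genes. The median log2 ratio was -0.03, and the median of all named genes was -0.00077. The sign of the list's median turned under some settings. With median centring it was 0.13, where the median of all tested probes was 0.0997. By brightest probe the caudal-related gene cdx1a fell most (-1.66, SE 0.10, adjusted p = 1.7e-05), though its second probe gave -0.33. Falls followed in the Hox gene hoxc6b (-0.64, SE 0.09, adjusted p = 0.00109), the motor neuron homeobox gene mnx1 (-0.59, SE 0.10, adjusted p = 0.00260) and the hindbrain gene mafba (-0.57, SE 0.12, adjusted p = 0.00788, second probe -0.43).

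The rises were the pancreatic homeobox gene pdx1 (0.52, SE 0.09, adjusted p = 0.00261), the orphan receptor gene nr2f2 (0.37, SE 0.09, adjusted p = 0.0143) and hoxb3a (0.29, SE 0.08, adjusted p = 0.0257). Second probes gave 0.18 for pdx1 and -0.06 for nr2f2. Most Hox genes of the list did not pass, with values between -0.19 (hoxb1a) and 0.30 (hoxd4a). nr2f2 did not pass without replicate 3 (adjusted p = 0.0903), and hoxb3a did not pass once any replicate was left out (adjusted p from 0.0664 to 0.0993). With median centring cdx1a alone of the list passed.

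**Figure D4:**
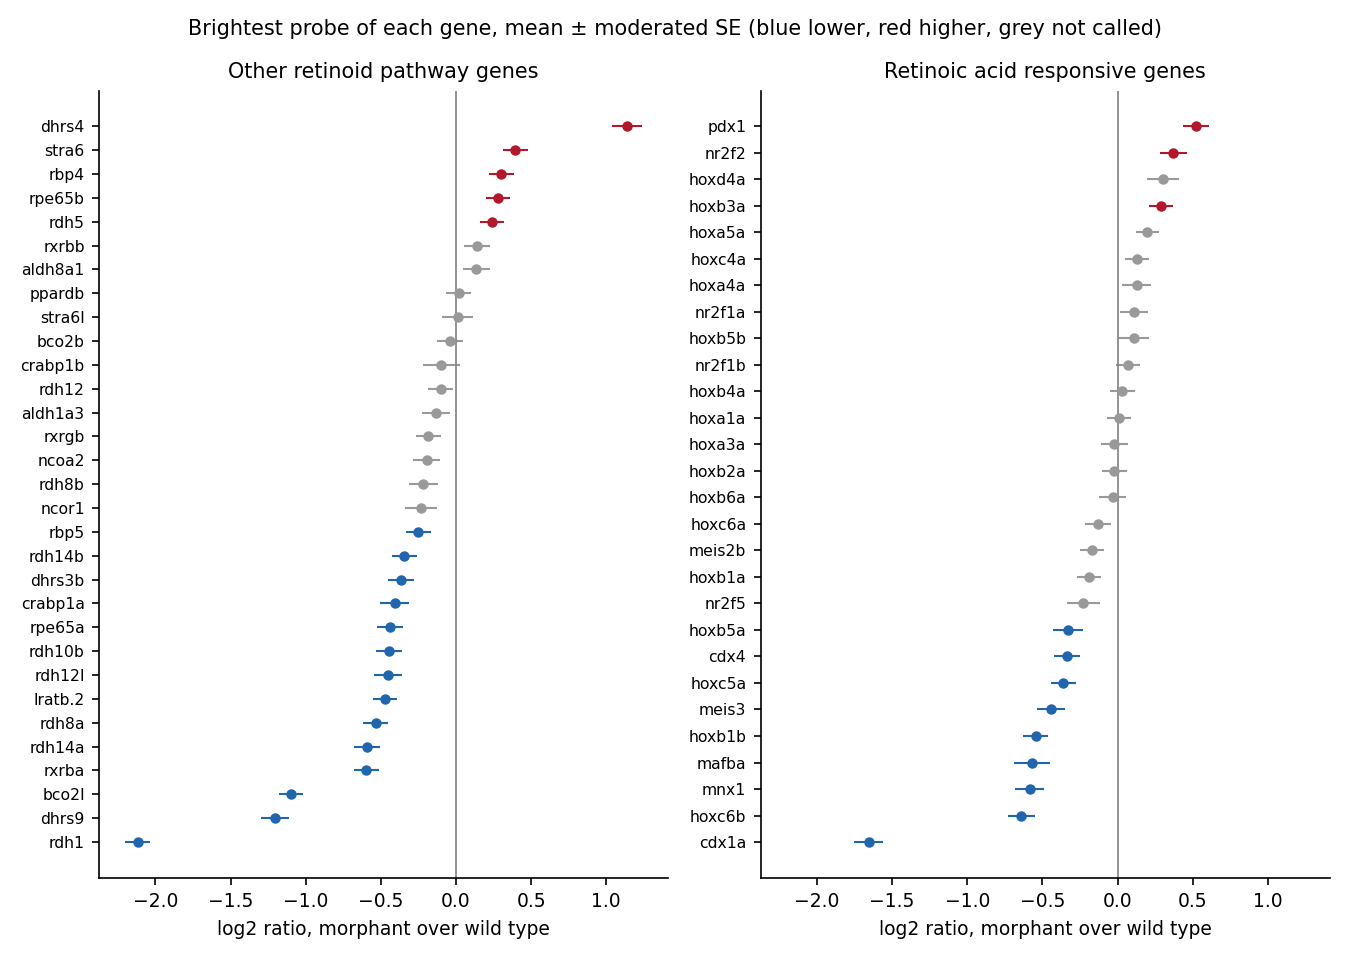
Log2 ratio of morphant over wild type (x axis, mean and moderated SE, brightest probe) for 31 of the 32 other retinoid pathway genes tested and 28 retinoic acid responsive genes; blue fell, red rose, grey did not pass. Of the pathway genes shown 14 fell and 5 rose, and in the responsive list 9 fell and 3 rose, with most Hox genes near 0.

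Some markers of tissues where the members are expressed also fell, beside 22.0% called lower over all named genes, and no test was made of these lists. Each marker, here and below, was taken by its brightest probe. Of 6 tested tail bud markers among 8 listed, 5 fell and none rose, with a median log2 ratio of -0.54 and values from -1.15 (wnt8a) to -0.09 (hes6). The 2 probes of tbx16 differed in size, at -0.46 and -2.11 (adjusted p = 2.5e-05 for the second). The summed intensity of the 6 tail bud markers was 42466 to 47677 in morphants and 64792 to 68911 in wild type. Sums here and below give most weight to the brightest probes, in the tail bud list that of tbxta. Of 9 paraxial mesoderm and somite markers, 7 fell and none rose, with a median of -0.47 and summed intensities of 67640 to 71972 against 95889 to 99905. The gene fgf8a is in both of these lists, and cdx4, mafba and hoxb1a are both markers and members of the responsive list. All tail bud and somite markers tested were well above background in both groups on all arrays. The fall of cyp26a1 stands beside the tail bud values and that of aldh1a2 beside the somite values, and their part in the result was not tested.

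Of 6 hindbrain markers, 3 fell and none rose, with a median of -0.42 and summed intensities of 28393 to 35743 against 45273 to 63088. The largest of these falls, of epha4a (-1.26), was not seen on its second probe (-0.14, adjusted p = 0.249). The second mafba probe also fell (-0.43, adjusted p = 0.0342). Of 9 retina markers, 4 fell and none rose, at a median of -0.23, with summed intensities of 50711 to 64930 against 64248 to 72913. The retina ranges overlapped, though on each array the morphant sum was the lower. Among retina markers that fell, a second probe passed for rx2 (-0.50, adjusted p = 0.0101) and did not for six3b (-0.24, adjusted p = 0.122). For pharyngeal and fin mesenchyme, 2 of 3 tested markers fell, at a median of -0.38, with summed intensities of 23841 to 27122 against 28843 to 34852. The fall of tbx1 (-0.38) was not seen on its second probe (-0.04, adjusted p = 0.771). The part of these tissues in the values of cyp26b1, cyp26c1 and aldh1a2 was not tested. Among 8 listed markers of differentiated tissue, the 4 tested, each of a different tissue, were not lower. Over all named genes 19.3% were called higher. The muscle actin gene actc1b (0.44, adjusted p = 0.00772) and the globin gene hbae3 (0.37, adjusted p = 0.0253) rose, and the neuron gene elavl3 (0.17) and the skin keratin gene krt4 (0.19) did not pass. The heart gene myl7 and the globin gene hbbe3 were above background but had a marked spot on an array, and fli1a and col9a1b had no matched probe.

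Over the 3 arrays, the named genes whose log2 ratios lay closest to those of aldh1a2 were lratd1, septin8a and hao2, at Euclidean distances of 0.0343, 0.0343 and 0.0368. For cyp26a1 they were the presomitic mesoderm gene tbx6 (0.0293), b3gat2 (0.0376) and eepd1 (0.0560). With 3 arrays such likeness is weak, and 453 of 9226 genes lay within a distance of 0.2 of aldh1a2 and 113 within that of cyp26a1.

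Replicate 1 stood apart from the other arrays. On it, 7.49% of spots that were not controls were marked as outliers, against 0.915% and 0.909% on replicates 2 and 3. Its median raw intensity was 446.5 in the morphant channel and 191 in wild type, against 153 and 114 in morphants and 110.5 and 170 in wild type on replicates 2 and 3. Replicate 1 was on slide 1 and the others shared slide 2, and as each array pairs morphant and wild type, slides do not run along the groups. Between 28635 and 31551 spots were well above background in a morphant channel and between 28822 and 31010 in a wild-type channel, and no spot was saturated. Turned to morphant over wild type, ratios of all tested probes correlated across probes between arrays at r = 0.818 to 0.851. Probes are not independent replicates.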

How the data were processed

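Arrays of Agilent design 019161 were scanned and quantified by the authors in Agilent's Feature Extraction software (version 8.5.1.1 per the submitters' processing notes, 10.5.1.1 per the file headers). Per the file headers, the deposited files hold each dye's median spot and background intensity, and a log10 ratio of Cy5 over Cy3 from processed signals. The deposited value table held the same log10 ratios with replicate 3 turned (largest difference 4.95e-06). Its column medians were 0, and its direction rests on the dyes in the labels.

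Median intensities, used because these files give no spot means, were corrected with normexp (offset 50) and loess-normalized within arrays in limma 3.58.1 (R 4.3.3). Control and marked spots had weight 0, replicate 3 was turned, and spots of a probe were averaged. Probes well above background on all arrays in either group numbered 28688. On at least 1 array 3622 of them had marked spots alone, leaving 25066. Log2 ratios were tested with lmFit and eBayes. The 3 arrays limit the precision. Channel intensities are after loess and Aquantile scaling and are comparable within a probe, not between probes. Accessions were matched without versions to a RefSeq table of assembly GRCz12tu (16770 of 43603 probes). Coordinates are left out because the headers' build is older. No promoter or protein sequence table was used here.

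The members and lists were chosen with earlier results of these data known. Named genes were every member, the 4 largest rises and falls per list, the 3 nearest genes to aldh1a2 and cyp26a1, grna, and markers. The result of 1 gene that this rule names is not reported here. Alternatives were other background corrections and normalizations, no filter, marked spots kept, a dye term, slide, 1 replicate left out and mean of probes. The limma step alone was tested on simulated ratios that held no dye or intensity effect. That test does not bear on the choice of normalization.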

Additional observations from a re-analysis of the deposited data

How the results depend on the processing

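With median centring 0 member probes, 0 member genes, 2 other pathway genes, 1 responsive gene and 715 of all tested probes passed, against 10, 7, 20, 12 and 9435 with loess. Of the 715, 409 were higher and 306 lower, against 4514 and 4921. With median centring the median of all tested probes was 0.0997. With median centring and a dye term 5 member probes, 4 member genes and 6951 of all tested probes passed. Leaving out 1 replicate gave 6 to 12 member probes, 4 to 8 member genes, 12 to 16 pathway genes, 9 to 10 responsive genes and 6187 to 8233 of all probes. The second cyp26b1 probe changed sign with median centring (0.12) and without replicate 1 (0.080), within a range of -0.12 to 0.080 with 1 replicate left out. Every other member probe kept its sign under all alternatives run. Total counts of calls stayed within 1.5 times under normexp with offset 16, no background correction, Agilent's log ratio, no filter, marked spots kept, a dye term, slide as a fixed block (chosen after seeing the data) and the mean of a gene's probes. With a dye term higher calls in the pathway list went from 5 to 2 and the responsive list's median to 0.0035, and with Agilent's log ratio higher member genes went from 2 to 1. Slide as a random block could not be fitted with 3 arrays. The test of each array's ratio against 0 is itself paired. No paired analysis was possible because of this as a further alternative, with a replicate block. Signal over background limits rxraa probe 2, rargb and rxrab. The labels call the arrays biological replicates. The p-values of the main fit rest on the spread of a probe between these 3, moderated in limma toward the spread over all tested probes (prior degrees of freedom 5.88). A dye term fits replicate 3 exactly and a fixed slide block replicate 1, so there the other arrays alone give a probe's spread.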
